A study of Mus musculus with 19 samples.

Results

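The receptors for IL-2, IL-4, IL-7, IL-9, IL-15 and IL-21 share the common gamma chain, and this account follows the mRNA of their 8 chains in lymph node Tregs. The members were the rows of the count table for *Il2ra*, *Il2rb*, *Il2rg*, *Il4ra*, *Il7r*, *Il9r*, *Il15ra* and *Il21r* (listed there in capitals, as IL2RA, IL2RB, IL2RG, IL4RA, IL7R, IL9R, IL15RA and IL21R), 8 of the 24982 genes listed, and all 8 passed the filter on low counts that left 11464 genes to be tested. Each receptor of the family pairs the common gamma chain, encoded by *Il2rg*, with at least one private chain that binds its own cytokine. The gamma chain carries the kinase JAK3, and the chain that signals together with it carries JAK1. The receptors signal through STAT5 (IL-2, IL-7, IL-9, IL-15), STAT6 (IL-4) or mainly STAT3 (IL-21). Tregs are known for high CD25, the alpha chain of the IL-2 receptor encoded by *Il2ra*, and for low CD127, the IL-7 receptor alpha chain encoded by *Il7r*. They depend on IL-2 that other T cells make.

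Bulk RNA-seq was done on CD4+FoxP3-GFP+ Tregs sorted by FACS into CD44high and CD44low cells from the axillary, brachial and inguinal lymph nodes that drain the injury. CD44 marks T cells that have met antigen. Donors in all groups were Foxp3DTR mice, whose *Foxp3* gene drives a diphtheria toxin receptor joined to GFP, and the methods give 8- to 16-week-old mice for the study, with no toxin named for this sort. Injured mice had 20% of their body surface exposed to a 90 °C bath for 9 seconds, a burn that models trauma, and cells were taken at day 7. Uninjured mice had sham treatment. The groups were CD44low Tregs of uninjured mice (n = 5), CD44low Tregs of injured mice (n = 6), CD44high Tregs of uninjured mice (n = 4) and CD44high Tregs of injured mice (n = 4), 19 libraries in all, each from 50000 cells. The labels do not say whether a library held the cells of 1 mouse or several, so p-values measure the spread between these libraries.

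Between 5582234 and 9433610 reads were counted per library. Levels are given as CPM, a gene's count relative to the library total after scaling by TMM factors. A gene was called where edgeR's quasi-likelihood test gave an adjusted p under 0.05 over all genes tested. *Cd44* stood higher in CD44high than in CD44low Tregs in every library, and *Foxp3* was detected in every library, between 47.7 and 181 CPM. Lists of marker genes for other cells also moved with the groups. The summed level of 7 macrophage and dendritic cell markers was 20.6 to 39.5 CPM in CD44low Tregs of uninjured mice and 34.1 to 150 CPM in those of injured mice, against 74.6 to 151 CPM and 92.3 to 236 CPM in CD44high Tregs. Most of it was *Lyz2*, with group means of 22.5 and 54.2 against 75.2 and 119 CPM. Between the subsets all 7 were called higher in CD44high Tregs of uninjured mice (24.7% of genes were), and 2 in injured mice (20.1%). With injury 1 was called higher in CD44low Tregs (4.24%) and 0 in CD44high Tregs (1.06%). In CD44high Tregs the means of *Lyz2*, *Cd68* and *Adgre1* were higher after injury and those of the other markers lower. The summed level of 6 conventional CD4 T cell markers was 712 to 892 and 506 to 687 CPM in CD44low Tregs, and 102 to 169 CPM over all CD44high libraries. Most of it was *Igfbp4*, with group means of 704 and 527 against 75.0 and 53.5 CPM, while *Cd40lg* stood at 46.2 to 58.6 CPM, and of 5 markers tested 3 were lower in CD44high Tregs of uninjured mice, and 2 lower and 1 higher in injured mice. The stroma list summed to 135 to 230 CPM in CD44low and 59.3 to 114 CPM in CD44high libraries. Most of it was *Pecam1*, with means in uninjured and injured mice of 202 and 193 CPM in CD44low and 60.8 and 97.9 CPM in CD44high Tregs. *Pecam1* was lower in CD44high Tregs (-1.73 and -0.98). *Col1a1* was higher there, at a mean of at most 2.36 CPM, and *Ccl21a* and *Pdpn* were at 0 throughout. B cell markers summed to 72.2 to 209 CPM and CD8 and NK cell markers to 46.5 to 75.7 CPM, ranges that overlapped between all groups. Whether these transcripts came from other cells or from the Tregs was not tested, nor was the part of such cells in the receptor values. The labels of 3 of the 6 CD44low libraries of injured mice end in a further number (1_2, 4_2, 5_2) whose meaning is not given. Libraries 1 and 1_2 share a first number, as do 5 and 5_2, and whether they hold the same cells is not given. Each was taken as 1 replicate, so n = 6 may overstate the replicates of this group. Called differences of members that rest on this group are also given with either set alone, as are those of other genes where a call was lost or the value moved by over 1.5 times.

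The members whose group means spanned at least 1 on the log2 CPM scale were *Il2ra*, *Il4ra*, *Il7r* and *Il9r*. The 250 bases before their start sites are shown, since they are the DNA next to the transcripts that differed most between groups. They are from RefSeq, build GRCm38.p6, 5′ to 3′ on the strand of the gene, at chr2:11642542-11642791 (plus strand, *Il2ra*), chr7:125552021-125552270 (plus strand, *Il4ra*), chr15:9529877-9530126 (minus strand, *Il7r*) and chr11:32200280-32200529 (minus strand, *Il9r*). Capitals mark a match to 1 of 4 motifs searched on both strands.
Il2ra: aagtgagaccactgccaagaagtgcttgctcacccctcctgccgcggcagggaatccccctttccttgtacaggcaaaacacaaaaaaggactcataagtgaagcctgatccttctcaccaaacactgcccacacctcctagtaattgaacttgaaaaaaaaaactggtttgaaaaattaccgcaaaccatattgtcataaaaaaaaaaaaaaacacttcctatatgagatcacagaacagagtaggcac
Il4ra: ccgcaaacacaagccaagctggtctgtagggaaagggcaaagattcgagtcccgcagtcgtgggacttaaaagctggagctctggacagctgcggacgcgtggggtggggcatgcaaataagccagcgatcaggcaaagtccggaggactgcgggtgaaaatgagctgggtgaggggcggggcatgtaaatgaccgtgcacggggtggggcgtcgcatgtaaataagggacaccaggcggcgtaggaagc
Il7r: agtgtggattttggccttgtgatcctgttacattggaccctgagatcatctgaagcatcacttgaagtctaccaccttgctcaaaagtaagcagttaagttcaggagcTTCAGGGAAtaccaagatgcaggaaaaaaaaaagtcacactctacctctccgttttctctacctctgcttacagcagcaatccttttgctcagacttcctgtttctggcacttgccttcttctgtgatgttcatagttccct
Il9r: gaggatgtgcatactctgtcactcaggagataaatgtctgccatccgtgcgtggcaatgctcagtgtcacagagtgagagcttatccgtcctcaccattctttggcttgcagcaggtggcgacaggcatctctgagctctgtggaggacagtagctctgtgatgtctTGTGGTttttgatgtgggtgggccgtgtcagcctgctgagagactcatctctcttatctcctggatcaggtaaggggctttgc

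The motifs were TTCNNNGAA for STAT factors, GTAAACA for FOXO factors, TGTGGT for RUNX factors and CCGGAAGT for ETS factors. The *Il7r* window held the STAT letters, as TTCAGGGAA, 142 bases before the start, a match that 7.02% of 32851 mouse windows of the same length hold. *Il9r* held the RUNX letters 83 bases before its start, as did *Il2rg* 227 bases before its own, against 14.0% of windows. *Il21r* held the FOXO letters (3.17% of windows) and the RUNX letters next to each other, with an overlap. *Il2ra*, *Il4ra* and *Il15ra* held none of the 4, and no window held the ETS letters (2.88% of windows). A window was given for 7 of the 8 members, not for *Il2rb*. A match is a description of the letters and not of a bound site.

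Levels of different receptors were compared per kilobase of transcript, with the longest protein-coding transcript of each gene in GENCODE vM21. *Il2rg*, the shared chain, stood highest in all groups, with a mean between 1113 CPM per kilobase in CD44low Tregs of uninjured mice and 1605 CPM per kilobase in CD44high Tregs of injured mice. It made up between 55.7% and 66.3% of the 8 members' summed level per kilobase, and between 36.0% and 49.1% with the shortest transcript of each gene. *Il2rb* came next in each group, between 337 and 449 CPM per kilobase, and then *Il21r*, between 141 and 216. The order below these differed by subset. In CD44low Tregs of uninjured mice it ran *Il2ra* (189 ± 16.7 SD, n = 5), *Il4ra* (115 ± 6.31), *Il7r* (38.2 ± 5.91), *Il15ra* (5.58 ± 1.79) and *Il9r* (1.40 ± 0.553), in CPM per kilobase, and among all 8 only *Il21r* and *Il2ra* overlapped as neighbours. In CD44high Tregs of uninjured mice *Il7r* (97.1 ± 8.29, n = 4) stood above *Il4ra* (50.7 ± 4.34) and *Il9r* (16.9 ± 2.78) above *Il15ra* (7.26 ± 2.499), with no overlap between neighbours. After injury *Il7r* and *Il4ra* overlapped in CD44low Tregs (92.8 ± 23.6 and 111 ± 11.3, n = 6), as did *Il7r* and *Il2ra* in CD44high Tregs (100.3 ± 10.5 and 91.5 ± 26.5, n = 4). With the shortest transcript, *Il2ra* stood higher, at 823 CPM per kilobase in CD44low Tregs of uninjured mice, next to *Il2rg*. In CD44high Tregs of injured mice *Il2ra* was then at 398 and *Il7r* at 101 CPM per kilobase, without overlap. *Il21r* then stood below *Il2ra* in all groups, and 5 or 6 of the 8 members kept their rank in each group. The transcripts in use were not measured.

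**Figure D1:**
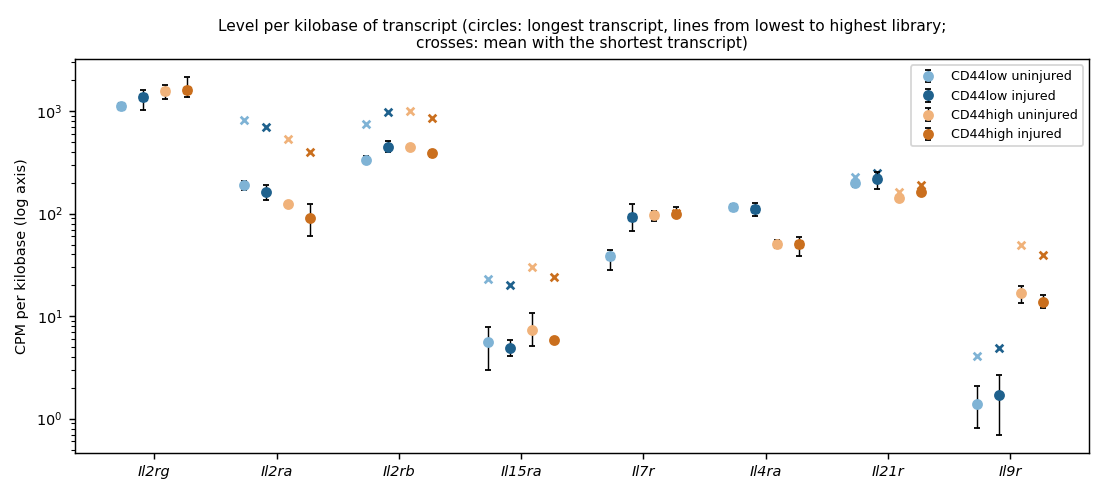
Mean level of the 8 receptor chains in CPM per kilobase on a log axis, by group, with lines from the lowest to the highest library (circles, longest transcript) and the mean with the shortest transcript (crosses). *Il2rg* is highest in all groups, between 1113 and 1605, and *Il9r* in CD44low Tregs is lowest, at 1.40 and 1.70 with the longest transcript.

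CD44high and CD44low Tregs differed in most of these receptors before injury. Of the 8 members, 7 were called between the subsets in uninjured mice, where 46.1% of all genes tested were called, and none of these 7 overlapped between the groups (40.7% of all genes). *Il2rb*, *Il2rg*, *Il7r* and *Il9r* were higher in CD44high Tregs (24.7% of genes were) and *Il2ra*, *Il4ra* and *Il21r* lower (21.3%). The members' median log2 difference was 0.39, against 0.01 over all genes. In injured mice 4 members were called, against 37.4% of genes, and the same 4 did not overlap, against 24.8% of genes. *Il9r* was higher (20.1% of genes were) and *Il2ra*, *Il4ra* and *Il21r* lower in CD44high Tregs (17.2%). In bulk RNA-seq, fewer cells that carry a transcript and less of it per cell cannot be told apart.

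Injury changed fewer members. In CD44low Tregs 2 of 8 were called, *Il7r* and *Il2rb*, both higher after injury and both without overlap, where 7.6% of genes were called (4.24% higher and 3.36% lower) and 4.68% did not overlap. In CD44high Tregs edgeR called 0 of 8, where 2.38% of genes were called. There 3 members had an unadjusted p under 0.05 and DESeq2 called 0. 2 of the 8, *Il2rb* and *Il21r*, did not overlap (13.3% of genes did not). The effect of injury differed between the subsets for the same 2 members that rose in CD44low Tregs, *Il7r* and *Il2rb*, where 0.645% of genes had such an interaction. All 5 comparisons rest on the same 19 libraries, and those within a subset or an injury state share groups.

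**Figure D2:**
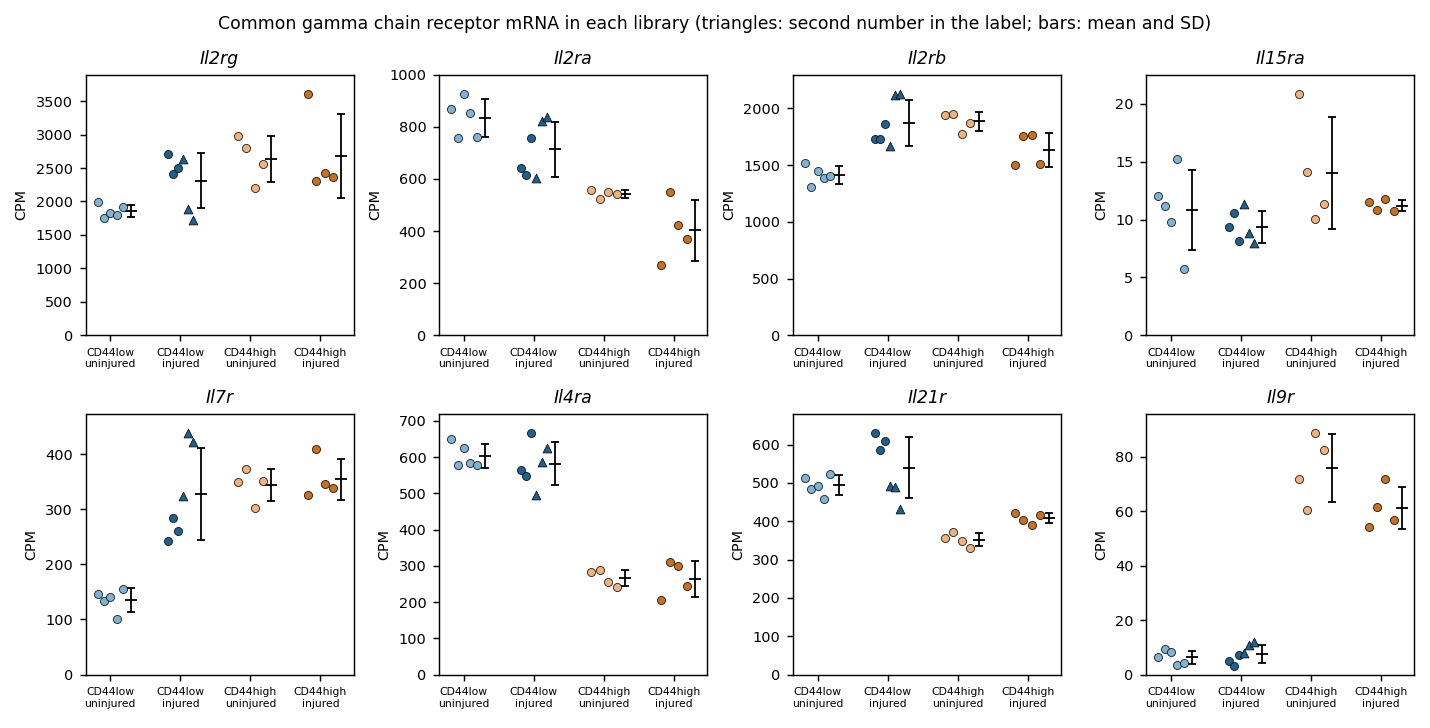
CPM of each member in every library, by group, with the mean and SD beside the points and triangles for CD44low libraries whose labels carry a second number. *Il9r* lies between 54.3 and 88.6 CPM in CD44high libraries and at most at 11.9 in CD44low libraries, and *Il7r* in CD44low Tregs lies between 101 and 156 CPM before and between 242 and 438 CPM after injury.

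The shared chain *Il2rg* differed less between groups than most of the chains it pairs with. In CD44low Tregs of uninjured mice it stood at 1992, 1759, 1825, 1797 and 1916 CPM. CD44high libraries of uninjured mice had 2984, 2798, 2198 and 2559 CPM, all above the CD44low ones. The log2 difference was 0.50 (standard error 0.137, adjusted p = 0.00430 by edgeR). After injury the CD44low libraries ran from 1725 to 2709 CPM, with a median of 2456, and the CD44high libraries had 3609.9, 2311, 2429.5 and 2370.4 CPM. The groups overlapped, and the difference of 0.21 was not called (95% confidence interval -0.06 to 0.49, adjusted p = 0.211), nor was it with libraries 1, 2 and 5 (0.077) or 1_2, 4_2 and 5_2 alone (0.34). CD44high library 2 of injured mice stood apart at 3609.9 CPM, and without it the difference was 0.01. In CD44low Tregs injury went with a log2 difference in *Il2rg* of 0.32 (standard error 0.125) that was not called (adjusted p = 0.113). It was called without library 5_2 (0.41, adjusted p = 0.0238) and with libraries 1, 2 and 5 alone (0.45, adjusted p = 0.0151), and stood at 0.19 with libraries 1_2, 4_2 and 5_2 alone (adjusted p = 0.472).

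*Il2ra* encodes CD25, which gives the IL-2 receptor its high affinity. Its level was lower in CD44high than in CD44low Tregs in both states. CD44low libraries of uninjured mice stood at 870.2, 756, 927, 855 and 762 CPM, and CD44high libraries at 557, 523, 551 and 541 CPM. The groups did not overlap, and CD44high Tregs had 1.54-fold less (log2 difference -0.62, standard error 0.145, adjusted p = 0.00123). After injury CD44low libraries ran from 604 to 839 CPM with a median of 700.4, and CD44high libraries had 269.9, 549.8, 425 and 369 CPM. Again no library of one group reached the other, a 1.77-fold lower level in CD44high Tregs (log2 difference -0.82, standard error 0.141, adjusted p = 6.16e-05). It was -0.74 with CD44low libraries 1, 2 and 5 alone and -0.93 with the other set, both called. With injury the means went from 834 ± 73.5 (SD, n = 5) to 713 ± 106 CPM (n = 6) in CD44low Tregs and from 543 ± 15.0 (n = 4) to 404 ± 117 CPM (n = 4) in CD44high Tregs. Neither difference was called (-0.23, adjusted p = 0.271, and -0.43, adjusted p = 0.153). The second was called without CD44high library 3 of injured mice, the highest of its group (-0.61, adjusted p = 0.0215). The SD of *Il2ra* among CD44high libraries was 2.76% of the mean before and 28.9% after injury.

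*Il2rb* encodes CD122, the signalling chain that the IL-2 and IL-15 receptors share. In CD44low Tregs it rose after injury. Uninjured CD44low libraries had 1518, 1307, 1447, 1383 and 1404 CPM, and those of injured mice ran from 1669 to 2128 CPM with a median of 1799. None of the injured libraries overlapped with the uninjured ones, a 1.33-fold higher level (log2 difference 0.41, standard error 0.0813, adjusted p = 0.00467). The difference was 0.33 with libraries 1, 2 and 5 alone and 0.51 with libraries 1_2, 4_2 and 5_2 alone, both called. CD44high libraries had 1941, 1954, 1775 and 1868 CPM in uninjured mice and 1501, 1756, 1766 and 1508 CPM in injured mice. Here the injured libraries were all below the uninjured ones, but the difference of -0.21 was not called (unadjusted p = 0.0387, adjusted p = 0.296). The effect of injury differed between the subsets by -0.61 (CD44high minus CD44low, standard error 0.124, adjusted p = 0.0157). Without CD44high library 5 of injured mice this difference was -0.58 and was not called (adjusted p = 0.0554), and with either set of CD44low libraries alone it was -0.54 or -0.70, both called. *Il2rb* was 1.33-fold higher in CD44high than in CD44low Tregs of uninjured mice (log2 difference 0.42, adjusted p = 0.00055). In injured mice CD44low Tregs had the higher mean, 1874 ± 203 against 1633 ± 149 CPM, a difference of -0.20 that was not called (adjusted p = 0.0743) but was called by DESeq2 (-0.21, adjusted p = 0.0470) and without library 1, 2 or 1_2 of the CD44low group. This value depended on the set, at -0.12 with libraries 1, 2 and 5 alone (adjusted p = 0.278) and -0.30 with libraries 1_2, 4_2 and 5_2 alone (adjusted p = 0.0213).

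*Il15ra* encodes the chain that binds IL-15 and presents it to the IL-2 receptor beta and gamma chains. It was sparsely counted, with 34 to 117 reads per library. CD44low libraries of uninjured mice had 12.04, 11.2, 9.79, 15.2 and 5.74 CPM and CD44high libraries 20.9, 14.1, 10.01 and 11.3 CPM. After injury CD44low libraries lay between 7.95 and 11.4 CPM, and CD44high libraries between 10.7 and 11.7 CPM. No comparison was called for *Il15ra*, and the 95% confidence interval of the difference between the subsets in uninjured mice ran from -0.12 to 0.87 on the log2 scale.

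*Il7r* encodes CD127, which binds IL-7 and, with CRLF2, TSLP. It was the member that changed most with injury. CD44low libraries of uninjured mice had 146, 134, 141, 101 and 156 CPM. Injured CD44low libraries without a second number (1, 2 and 5) had 242, 284 and 259.9 CPM, and libraries 1_2, 4_2 and 5_2 had 325, 438 and 421 CPM. Both sets lay above every uninjured CD44low library, and the sets did not overlap with each other. CD44high libraries had 349, 373, 303 and 351 CPM in uninjured mice and 326, 409.6, 346 and 338 CPM in injured mice, so that CD44low libraries of injured mice reached the CD44high range only in the set with a second number. By p-value the difference of 1.28 with injury in CD44low Tregs was the fourth of all genes tested. It was 0.95 with libraries 1, 2 and 5 alone (adjusted p = 2.47e-05) and 1.57 with the other set alone (adjusted p = 5.40e-07). With libraries 1 and 1_2 summed, and 5 and 5_2 summed, it was 1.30 (adjusted p = 8.10e-06 by edgeR). In CD44high Tregs the difference was 0.05 (95% confidence interval -0.29 to 0.38). The effect of injury thus differed by -1.23 on the log2 scale (CD44high minus CD44low, standard error 0.216, adjusted p = 0.00417), and by -0.91 and -1.51 with either set alone (adjusted p = 0.00373 and 6.76e-05).

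The difference between the subsets in *Il7r* was large before injury and smaller after it. In uninjured mice CD44high Tregs had 2.54-fold more (log2 difference 1.35, standard error 0.155, adjusted p = 1.75e-07), without overlap. In injured mice the difference was 0.11 (95% confidence interval -0.19 to 0.42, adjusted p = 0.578). This value hung on the library set. With libraries 1, 2 and 5 alone *Il7r* was called higher in CD44high Tregs (0.44, adjusted p = 0.00924), and with libraries 1_2, 4_2 and 5_2 alone the sign turned (-0.18, adjusted p = 0.325). *Il9r* and *Il21r* also did not overlap between the 2 sets, 3 of 8 members with *Il7r*, against 19.3% of all genes. The macrophage and dendritic cell list stood at 54.3 to 150 CPM in libraries 1, 2 and 5 and at 34.1 to 41.9 CPM in the other set. The other marker lists overlapped between the sets, with the conventional CD4 T cell list at 506 to 687 and 617 to 644 CPM. The part of other cells in the *Il7r* difference between the sets was not tested.

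*Il4ra* encodes the chain that binds IL-4 and, with IL13RA1, IL-13. It was lower in CD44high Tregs in both states and was not called with injury. CD44low libraries had 651, 578, 626, 585 and 579 CPM before injury and 497 to 666 CPM, with a median of 576, after it. CD44high libraries had 283, 288, 255 and 241 CPM before and 204, 309.8, 299.6 and 244 CPM after injury. The subsets did not overlap in either state. CD44high Tregs had 2.26-fold less in uninjured mice (log2 difference -1.18, standard error 0.114, adjusted p = 1.03e-08) and 2.20-fold less in injured mice (-1.13, standard error 0.11, adjusted p = 1.74e-08), where either set of CD44low libraries alone gave -1.16 or -1.13. With injury the 95% confidence intervals ran from -0.25 to 0.23 in CD44high and from -0.26 to 0.15 in CD44low Tregs.

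*Il21r* encodes the IL-21 receptor and follows *Il4ra* on chromosome 7 of the RefSeq gene order, with no tested gene between. It was also lower in CD44high Tregs, but by less. CD44low libraries of uninjured mice had 513, 483, 492, 459 and 523 CPM and CD44high libraries 356, 371, 349 and 329.6 CPM. After injury CD44low libraries ran from 432 to 629.8 CPM with a median of 539, and CD44high libraries had 422, 404, 391 and 417 CPM. The groups did not overlap in either state, with log2 differences of -0.49 (standard error 0.0999, adjusted p = 0.000327) and -0.40 (standard error 0.0961, adjusted p = 0.00193). The difference in injured mice was -0.58 with CD44low libraries 1, 2 and 5 alone and -0.23 with the other set (adjusted p = 0.0428). In CD44high Tregs the lowest injured library stood above the highest uninjured one, a difference of 0.22 that was not called (unadjusted p = 0.0497, adjusted p = 0.329). In CD44low Tregs the difference with injury was 0.13 (adjusted p = 0.378). Libraries 1, 2 and 5 stood at 586 to 629.8 CPM, above the uninjured range, and libraries 1_2, 4_2 and 5_2 at 432 to 492 CPM, partly below it, so that the difference was called with the first set alone (0.30, adjusted p = 0.00933) and was -0.05 with the second (adjusted p = 0.789).

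*Il9r* encodes the chain that binds IL-9. It showed the largest difference between the subsets of the 8 members. CD44low libraries of uninjured mice had 6.25, 9.30, 8.09, 3.59 and 4.05 CPM, that is 24 to 59 reads each, and CD44high libraries had 71.7, 60.2, 88.6 and 82.2 CPM. After injury CD44low libraries ran from 3.11 to 11.9 CPM with a median of 7.37, and CD44high libraries had 54.3, 61.5, 71.8 and 56.7 CPM. No CD44low library came near the CD44high ones. The level was 12.1-fold higher in CD44high Tregs of uninjured mice (log2 difference 3.59, standard error 0.284, adjusted p = 3.28e-10) and 8.12-fold higher in those of injured mice (3.02, standard error 0.26, adjusted p = 2.09e-09). In injured mice the log2 difference was 3.62 with CD44low libraries 1, 2 and 5 alone and 2.55 with the other set, both called. Differences with injury were not called in CD44high (-0.31, adjusted p = 0.642) or CD44low Tregs (0.26, adjusted p = 0.588). *Snrnp25*, the tested gene after *Il9r* in the RefSeq order, was also higher in CD44high Tregs (1.38 and 1.14). *Nsg2*, the tested gene before it, was lower there (-1.78 and -1.25, both called). The counting is not stated to have used strand.

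**Figure D3:**
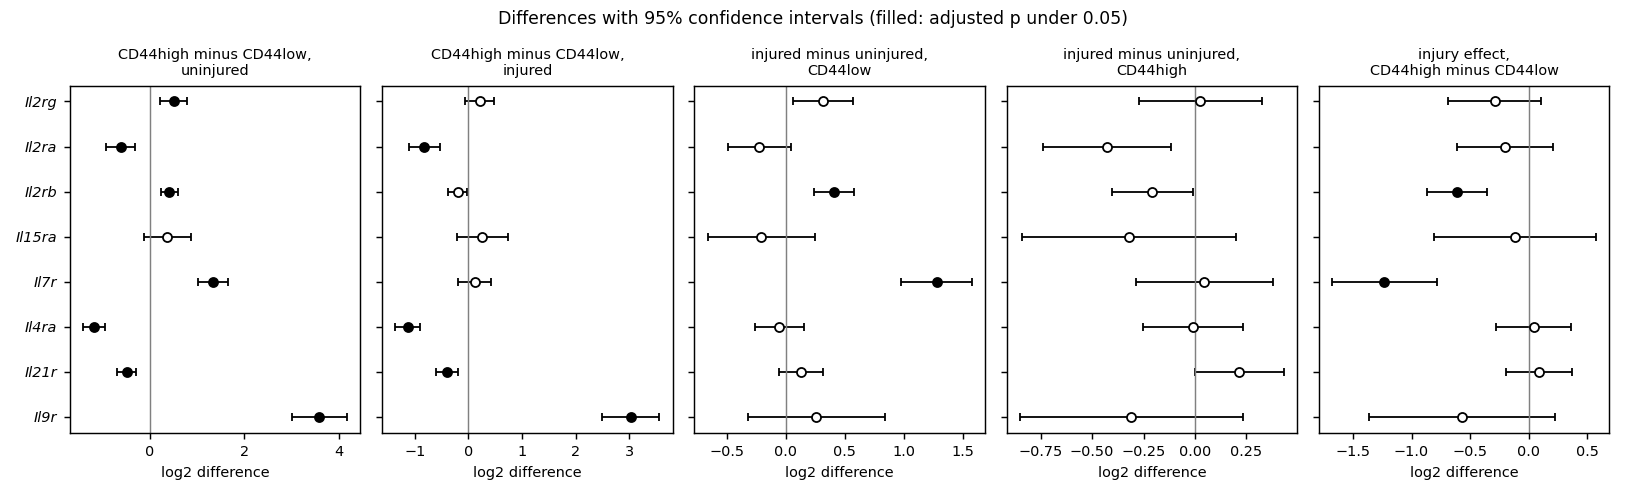
Log2 differences of the 8 members with 95% confidence intervals in 4 comparisons and the interaction (effect of injury in CD44high minus that in CD44low Tregs), each panel on its own axis, filled where the adjusted p is under 0.05. *Il7r* and *Il2rb* are filled in the panel of injury in CD44low Tregs (1.28 and 0.41) and in the interaction (-1.23 and -0.61), and no member is filled in the panel of injury in CD44high Tregs.

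The balance of IL-2 to IL-7 receptor mRNA was taken as the log2 ratio of *Il2ra* to *Il7r* counts within each library, a ratio that does not depend on how the libraries are scaled. Transcript length shifts it by the same amount in all libraries, so it was compared between groups and not read as which gene was more abundant. CD44low Tregs of uninjured mice had ratios of 2.58, 2.49, 2.72, 3.09 and 2.29, and CD44high Tregs 0.674, 0.489, 0.863 and 0.626. After injury CD44low libraries ran from 0.894 to 1.55 with a median of 1.06, and CD44high libraries had -0.273, 0.425, 0.297 and 0.126. The 4 groups fell in 4 separate ranges, from CD44low uninjured through CD44low injured and CD44high uninjured to CD44high injured. The ratio was 3.92-fold lower in CD44high than in CD44low Tregs of uninjured mice (log2 difference -1.97, exact permutation p = 0.00794, two-sided, 0.0132 after adjustment over the 5 tests of this ratio). In injured mice the ratio was 2.001-fold lower (exact permutation p = 0.00476, adjusted 0.0119). With injury it fell by 1.49 in CD44low Tregs (exact permutation p = 0.00216, adjusted 0.0108) and by 0.52 in CD44high Tregs (exact permutation p = 0.0286, adjusted 0.0357). These 4 p-values are the smallest that the group sizes allow, with each library taken as 1 replicate.

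Each gene was also tested on its own. In CD44low Tregs *Il7r* was called higher after injury and *Il2ra* was not called, and in CD44high Tregs neither gene was called alone. The difference between the subsets in the shift with injury was 0.97 on the log2 scale. It had an exact permutation p of 0.0821 when injury labels were exchanged within each subset, and did not pass the threshold. That exchange takes injury to have no effect in either subset, so the shifts themselves widen its spread. The test therefore cannot decide whether the shift differed between the subsets. Without CD44high library 2 of injured mice, which had the lowest ratio, the difference between the subsets was 1.11 (exact permutation p = 0.0347, adjusted 0.0434). The shift in CD44high Tregs without that library was -0.38 with 4 against 3 libraries (exact permutation p = 0.0571), although the groups still did not overlap. With either set of CD44low libraries alone the shift in CD44low Tregs was -1.28 or -1.70. With libraries 1 and 1_2 summed, and 5 and 5_2 summed, it was -1.53 (exact permutation p = 0.00794, adjusted 0.0198).

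The ratio of *Il2rb* to *Il7r* went the same way over a smaller range. Its log2 values were 3.40 ± 0.23 (SD, n = 5) in CD44low Tregs of uninjured and 2.54 ± 0.258 (n = 6) in those of injured mice, and 2.46 ± 0.0718 (n = 4) and 2.20 ± 0.108 (n = 4) in CD44high Tregs. It was lower in CD44high Tregs of uninjured mice by 0.94 (exact permutation p = 0.00794, adjusted 0.0198) and was lower after injury in CD44low Tregs by 0.85 (exact permutation p = 0.00216, adjusted 0.0108) and in CD44high Tregs by 0.25 (exact permutation p = 0.0286, adjusted 0.0476). Between the subsets in injured mice the difference of -0.34 did not pass after adjustment (exact permutation p = 0.0429, adjusted 0.0536), and the groups overlapped. It was -0.56 with CD44low libraries 1, 2 and 5 alone (exact permutation p = 0.0286, adjusted 0.0357) and -0.12 with libraries 1_2, 4_2 and 5_2 alone (exact permutation p = 0.143). Libraries 1, 2 and 5 of the CD44low group had 2.84, 2.61 and 2.84, and libraries 1_2, 4_2 and 5_2 had 2.36, 2.27 and 2.34, inside the CD44high range of 2.10 to 2.35 or next to it. The interaction of 0.60 had an exact permutation p of 0.0636, by the same exchange of labels, which cannot decide whether the shifts differed.

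**Figure D4:**
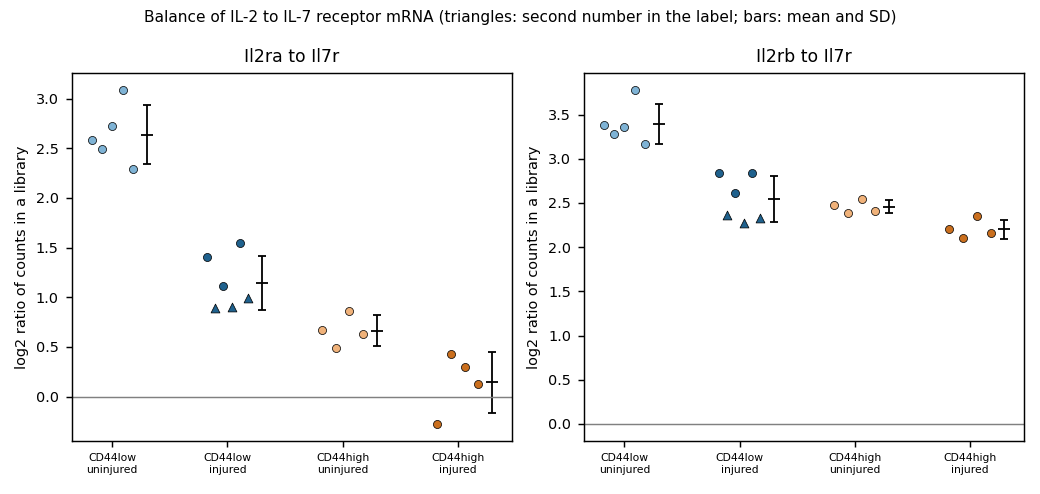
Log2 ratio of *Il2ra* to *Il7r* counts (left) and of *Il2rb* to *Il7r* counts (right) in every library, by group, with mean and SD beside the points and triangles for labels with a second number. The *Il2ra* to *Il7r* ratios lie between 2.29 and 3.09, 0.894 and 1.55, 0.489 and 0.863, and -0.273 and 0.425 in the 4 groups from left to right.

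The cytokines themselves were hardly transcribed in these cells. None of the 7 ligand genes (*Il2*, *Il4*, *Il7*, *Il9*, *Il15*, *Il21* and *Tslp*) passed the filter on low counts. *Il2*, the growth factor of activated conventional T cells, had at most 0.891 CPM in any library, and *Il7* and *Il15*, which stromal and myeloid cells make, at most 3.21 and 1.96 CPM. *Il4* and *Il21*, cytokines of helper T cells, had no count in CD44low Tregs of uninjured mice and at most 2.97 and 4.24 CPM in a CD44high library. *Tslp*, the ligand of IL7R with CRLF2, reached 0.575 CPM. *Il9* had no count in any of the 19 libraries, which allows up to 0.0227 CPM over all of them, a limit for counting error only. Of 3 partner chains outside the family, *Crlf2*, the chain that joins IL7R in the TSLP receptor, was higher in CD44high Tregs in both states (log2 differences 1.13 and 0.64, adjusted p = 4.15e-06 and 0.00201), though in injured mice it was 0.99 with CD44low libraries 1, 2 and 5 alone and 0.32, not called, with the other set (adjusted p = 0.0806). *Il13ra1*, which pairs with IL4RA to bind IL-13, was also higher (2.35 and 1.14), the opposite direction to *Il4ra*, at means of 2.02 to 10.3 CPM. Its call in injured mice was lost with CD44low libraries 1, 2 and 5 alone (1.06, adjusted p = 0.0790) and without CD44high library 5 (0.73, adjusted p = 0.133). That CD44high library had the highest macrophage and dendritic cell marker sum of all, 236 CPM. The part of such cells in the *Il13ra1* values was not tested. *Il13ra2*, a decoy receptor for IL-13, had no count.

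Of 10 genes that carry the signal onward, 8 were called between the subsets in uninjured mice, 1 higher and 7 lower in CD44high Tregs, with a median log2 difference of -0.66, and 7 in injured mice, all lower (46.1% and 37.4% of all genes were called, and 21.3% and 17.2% lower). *Jak3*, the kinase of the gamma chain, was the higher one in uninjured mice (466.4 ± 53.7 against 303.7 ± 16.01 CPM, log2 difference 0.62, adjusted p = 3.00e-05), as was *Il2rg* itself. *Jak1*, the kinase of the chains that signal together with the gamma chain, was lower in both states (-0.67 and -0.65). So were *Stat5a* (-0.82 and -0.60), *Stat6* of IL-4 signalling (-0.66 and -0.65) and *Pik3r1*, a PI3 kinase subunit (-0.66 and -0.63). *Irs2*, the adaptor that IL-4 and insulin receptors use, was the only one of the 10 called with injury. In CD44high Tregs 2.38% of all genes were called with injury, and in CD44low Tregs 7.6%. *Irs2* fell in both subsets, by 2.39 in CD44high (adjusted p = 0.000898) and 1.69 in CD44low Tregs (adjusted p = 0.00299). Among injured CD44low libraries it spread from 35.6 to 201 CPM, and the fall was 2.75 with libraries 1, 2 and 5 alone and 1.05 with the other set.

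Of 14 targets and feedback genes of STAT5, 8 were called between the subsets in uninjured mice (3 higher and 5 lower in CD44high Tregs) and 10 in injured mice (2 higher, 8 lower), beside 46.1% and 37.4% of all genes. *Bcl2* and *Bcl2l1*, which both protect from cell death, went in opposite directions. *Bcl2* differed by -3.48 and -3.01 (CD44high minus CD44low, log2 scale) and *Bcl2l1* by 1.16 and 1.11. *Prdm1*, a factor of effector Tregs, was higher by 3.58 and 2.93, and *Myc*, a growth regulator, lower (-1.42 and -1.25). With injury 5 of the 14 were called in CD44high Tregs (2.38% of all genes) and 1 in CD44low Tregs (7.6%), *Socs3* (0.53, adjusted p = 0.00873). In CD44high Tregs *Cish*, *Socs1* and *Socs2*, which restrain cytokine signalling, and the kinase *Pim1* fell, and *Myc* rose. *Cish* went from 494 ± 34.5 to 248 ± 41.5 CPM (log2 difference -0.996, adjusted p = 0.000217), *Pim1* changed by -1.06 (adjusted p = 0.00631) and *Socs1* by -0.50 (adjusted p = 0.0182). The calls of *Socs1* and *Myc* were each lost in 4 of 13 alternatives. *Cish* also had an interaction (-0.85, adjusted p = 0.0280), which lost its call in 8 of 26 alternatives, each with 1 library left out (adjusted p up to 0.0812).

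Of 12 genes of resting T cells, several of which are known with *Il7r* in naive cells, 10 were lower in CD44high Tregs in both states (21.3% and 17.2% of all genes were) and 0 higher, while *Il7r* was higher there in uninjured mice. *Satb1*, a chromatin organizer, differed by -3.83 and -2.13, and the naive T cell factor *Tcf7* by -1.91 and -1.21. *Ccr7*, which guides cells to lymph nodes, differed by -1.71 and -1.69, *Lef1* by -1.28 and -1.10, *Bach2* by -2.79 and -2.64 and *Klf2*, a factor of quiescent T cells, by -0.94 and -1.32. With injury 2 of the 12 were called in CD44high Tregs (2.38% of all genes were), *Satb1* (1.56) and *Tcf7* (0.60), both higher. The same 2 had an interaction (1.71 and 0.70), as 0.645% of all genes did. In CD44low Tregs 1 of the 12 was called with injury, against 7.6% of all genes. It was *Foxo1*, which was lower (-0.47).

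**Figure D5:**
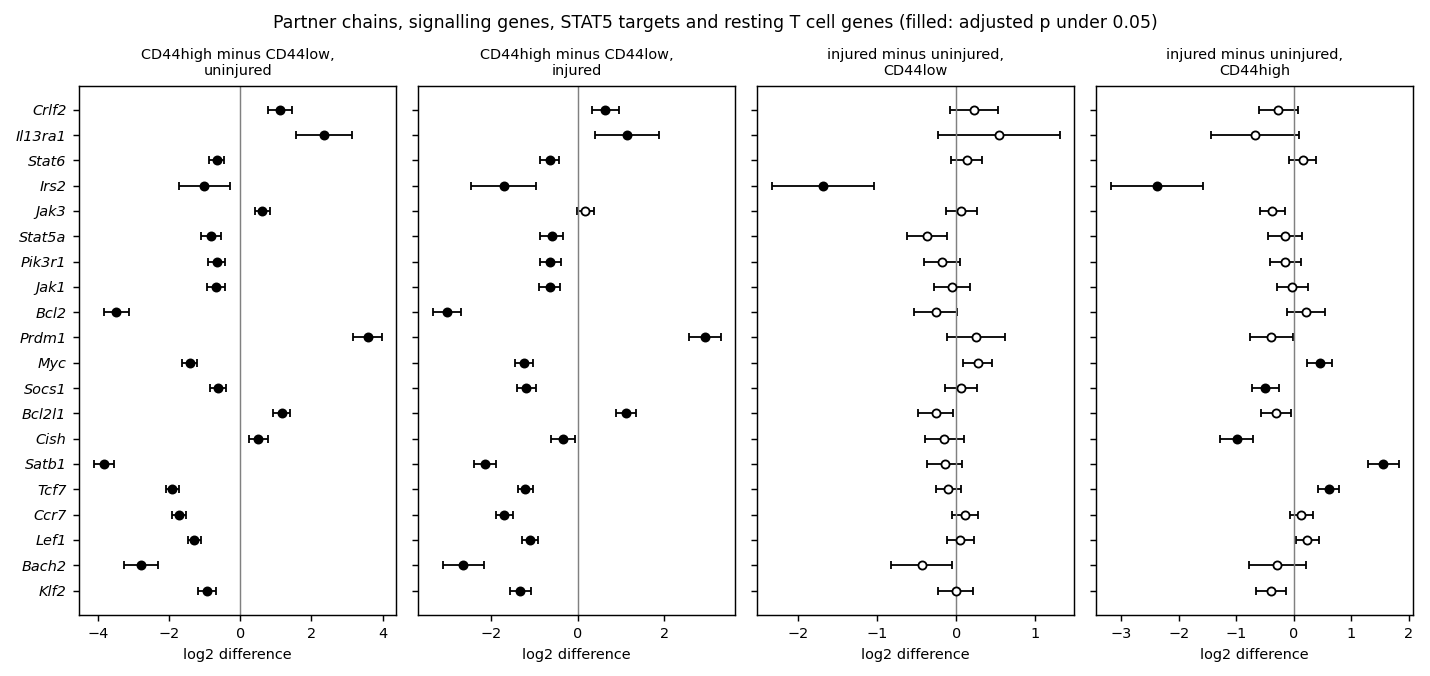
Log2 differences with 95% confidence intervals of partner chains, signalling genes, STAT5 targets and resting T cell genes in 4 comparisons, each panel on its own axis, filled where the adjusted p is under 0.05. *Bcl2* and *Prdm1* lie far apart between the subsets (-3.48 and 3.58 in uninjured mice), and *Satb1* and *Tcf7* are filled above 0 with injury in CD44high Tregs only.

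Genes with the nearest pattern over the 19 libraries were found by the root mean square difference of log2 CPM after each gene was centred. For *Il2ra* they were *Map2k7*, *Akap8* and *Rcc2* (0.144 to 0.148), and for *Il4ra* they were *Ripor2*, *Slc44a2* and *Pik3r5* (0.129 to 0.148). *Il7r* was less closely matched, by *D17H6S56E-5* (0.257), *Serinc3* (0.357) and *0610039K10Rik* (0.36). These 3, chosen for that likeness, were higher after injury in CD44low Tregs (0.90, 0.69 and 0.62). With libraries 1, 2 and 5 alone *Serinc3* rose by 0.32 and *0610039K10Rik* was not called (0.29, adjusted p = 0.108), against 1.01 and 0.92 with the other set. *D17H6S56E-5* and *Serinc3* had an interaction (-0.93 and -0.83), which for *Serinc3* lost its call in 15 of 26 alternatives and was -0.46 with libraries 1, 2 and 5 alone. *Il9r* was nearest to *Kif23*, *Kif22* and *Racgap1* (0.452 to 0.463), genes of cell division that were higher in CD44high Tregs by 4.03, 4.10 and 4.10 in uninjured mice. The points share libraries and groups, so likeness of pattern is a description. The genes were chosen by that pattern, so a change shared with a member was largely set by the choice.

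Some members are neighbours in the genome. *Il15ra* is the tested gene nearest to *Il2ra* on one side on chromosome 2, and the chains differed in direction between the subsets of uninjured mice (0.37, not called, and -0.62). *Gtf3c1*, on the other side of *Il21r*, was lower in CD44high Tregs like *Il21r* and *Il4ra* (-1.37 and -1.04 in uninjured and injured mice, the second lost in 7 of 18 alternatives and at -0.61 with CD44low libraries 1, 2 and 5 alone, adjusted p = 0.239), and *Nsmce1*, on the other side of *Il4ra*, was not called (-0.06 and -0.08). *C1qtnf6* and *Kctd17*, on either side of *Il2rb*, were higher in CD44high Tregs in both states, and *Il2rb* was so in uninjured mice. *Med12*, beside *Il2rg*, was lower in CD44high Tregs of uninjured mice (-0.92, adjusted p = 0.0228), the opposite direction to *Il2rg*. *Foxo4* on the other side of *Il2rg*, *Rbm17* beside *Il2ra* and *Ankrd16* beside *Il15ra* were not called between the subsets. Of the genes beside *Il7r*, *Spef2* was just past the threshold after injury in CD44low Tregs (-1.32, adjusted p = 0.0442) and lost its call in 14 of 19 alternatives (adjusted p up to 0.136), and *Capsl* was not called (0.60).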

How the data were processed

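RNA was purified from 50000 sorted cells per sample, SMART-Seq cDNA was made from 1 ng of RNA, and Swift libraries were made from 2 ng of cDNA. The authors aligned and counted reads with STAR (2.5 in the submitters' processing notes, which also name bcl2fastq 2.18 and the builds mm9 and mm10 with no role given) in the VIPER workflow, and deposited raw counts per gene without normalization, with replicates kept apart. All 19 columns were matched to labels. From these counts, R 4.3.3 with edgeR 4.0.16 (filter minimum count 10, TMM, 1 mean for each of 4 groups, quasi-likelihood test, two-sided, Benjamini-Hochberg over 11464 genes, called at an adjusted p under 0.05) gave differences, standard errors and 95% confidence intervals. Lengths came from GENCODE vM21. Ratios used counts plus 0.5 and exact permutation tests (Python 3.11.15 with numpy 2.4.6), adjusted over 5 tests each. Windows and gene order came from RefSeq, and no coordinates of the count table are given.

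Members and lists (ligands, partner chains, signalling, STAT5 targets, resting T cell genes and cell markers) were chosen with earlier results of these data known. Named were all members and ligands, up to 6 called genes of a pathway list by smallest p, the 3 nearest patterns for members spanning at least 1 in log2 CPM and the tested neighbours. *Socs2*, *Socs3*, *Pim1* and *Foxo1* were named after their values were seen. Alternatives were DESeq2 1.42.0, RLE factors, no filter, compared groups alone, a replicate block, a 2-fold threshold, changes to the injured CD44low library sets and each library left out. Both count tests were checked on simulated counts with 200 changed genes. Depth was 5582234 to 9433610 counts per library, so intervals for single low genes are wide. The study's other assays were not used here. The resting T cell list holds 12 genes, after 1 other was left out that is not reported here.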

Additional observations from a re-analysis of the deposited data

Results flagged for a closer look

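Of 40 sets of values checked, members' CPM and both ratios in groups of 4 to 6 libraries, 1 held a library far from the rest, and chance gives about 1 in 20. It was *Il2rg* in CD44high Tregs of injured mice, where library 2 had 3609.9 CPM against 2311 to 2429.5 CPM in the other 3. The same library had the lowest *Il2ra* of its group (269.9 CPM) and the lowest *Il2ra* to *Il7r* ratio. The effect of injury differed between the subsets, by edgeR's interaction test (CD44high minus CD44low), for *Il7r* (-1.23) and *Il2rb* (-0.61) among the members, and for *Cish* (-0.85), *Tcf7* (0.70) and *Satb1* (1.71) among the named genes of the other lists. *Il7r* and *Il2rb* rose in CD44low Tregs and were not called in CD44high Tregs, and the other 3 changed in CD44high Tregs and were not called in CD44low Tregs.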

How the results depend on the processing

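The 15 called results of members kept their direction in all 260 recomputations and stayed called in 259, the exception being the interaction of *Il2rb* without CD44high library 5 of injured mice. Of 460 recomputations of the 25 results not called, 429 gave the same sign and call, 10 became called and 21 turned sign, none of these called. Causes were not tested. Depth limits *Il15ra* and *Il9r* in CD44low Tregs most, at 24 to 117 reads per library.

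With a 2-fold change also required, 3 members were called between the subsets in uninjured and 2 in injured mice, and 1 each with injury in CD44low Tregs and in the interaction. Without libraries 1_2, 4_2 and 5_2 injury in CD44low Tregs called 4 members. With libraries 1 and 1_2 summed, and 5 and 5_2 summed, it called 2, and the interaction 2. With 1 library left out, injury in CD44high Tregs called 0 to 1 members and the interaction 1 to 2. Signs turned for *Il21r* with injury in CD44low Tregs (-0.047) and *Il7r* between subsets in injured mice (-0.18) without libraries 1, 2 and 5. Without libraries 1_2, 4_2 and 5_2 they turned for *Il9r* with injury in CD44low Tregs (-0.34) and for the interactions of *Il9r* (0.028) and *Il21r* (-0.084). *Il4ra* with injury in CD44high Tregs was 0.00809 without the filter and 0.017 with the compared groups alone. With 1 library left out, this value ran from -0.094 to 0.11, the interactions of *Il4ra* from -0.041 to 0.14 and of *Il15ra* from -0.28 to 0.13, and injury in CD44high Tregs from -0.14 to 0.10 for *Il2rg* and from -0.028 to 0.10 for *Il7r*.

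The fall of the *Il2ra* to *Il7r* ratio in CD44high Tregs ran from -0.61 to -0.38 with 1 library left out, and lost its call in 5 of these (exact permutation p = 0.0571, with the groups still apart). Its interaction ran from 0.86 to 1.11. The *Il2rb* to *Il7r* ratio in CD44high Tregs ran from -0.30 to -0.22, losing its call in 4. Between subsets in injured mice it ran from -0.40 to -0.28, and passed at -0.34 with 1 CPM added and at -0.56 without libraries 1_2, 4_2 and 5_2, but not at -0.12 without libraries 1, 2 and 5. With the shortest transcript 5 members kept their rank in CD44low uninjured and CD44high injured Tregs, and 6 in the other groups.

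The label's number used as a replicate block gave *Il4ra* an interaction of -0.00104, left each call of a member as it was and reduced the genes called with injury in CD44low Tregs from 871 to 440. The block joined libraries of uninjured and injured mice that share a number, so it did not pair the subsets within an injury state. Of 8 same-number pairs of CD44high and CD44low libraries, 4 had a correlation of deviations over 0.1 (-0.0537 to 0.167), and not every library correlated best with its own number, so the libraries were taken to share only a number. Genes called with injury in CD44low Tregs were otherwise 1460 by DESeq2, 463 with compared groups alone, 143 at 2-fold, 1748 without libraries 1_2, 4_2 and 5_2, 445 without libraries 1, 2 and 5, and 510 to 1893 with 1 library left out. In CD44high Tregs the 273 genes became 477, 601, 86 and 152 to 215 in the matching settings. The 74 interactions became 215 by DESeq2, 314 and 136 without either set, and 43 to 110. At 2-fold, 2306 and 1666 genes differed between the subsets, against 5280 and 4283.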
